A study of Homo sapiens with 4 samples.

Results

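The genes described here are those that drive the cell cycle and mitosis, as seen in RNA pulled down with the m6A reader YTHDF2 from HCCLM3, a highly metastatic human liver cancer line. They were taken by symbol from all protein-coding genes of a RefSeq gene table: cyclins A, B, D and E, numbered CDKs and MCM proteins, E2F1 to E2F8, and named CDC proteins. AURKA, AURKB, the Polo-like kinases, all BUB, CENP and ANAPC genes, TOP2A and MKI67 completed the set. Of 100 such genes, 56 held at least 1 of the 97 peaks that fell in them, out of 14858 peaks in the whole list. The list had peaks in 6952 protein-coding genes. The data were 4 libraries of genetically unmodified (WT) cells, 2 of RNA immunoprecipitated with YTHDF2 (RIP) and 2 of input RNA, which the authors reduced to 1 peak list. No untreated comparison line, knockout or control pulldown was analysed here, so a peak is an excess of RNA in the pulldown and does not alone show a bound site. HCCLM3 is a single tumour line, and nothing in the labels says whether the replicates were separate cultures.

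In this list 1 of 15 hepatocyte markers had a peak (APOB, whose q missed 0.01), and none of the 3 hepatoma markers AFP, GPC3 and SPINK1 had one. Of 15 markers of endothelial, stromal, blood and erythroid cells, 4 had a peak, and HBB passed with 8 fragments. A gene without a peak has no value in such a list, so these counts give no level of any marker and cannot check the labelled cell type. Library depths are unknown for the same reason.

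Cells divide by switching CDK activity on and off. Cyclins are made and destroyed in turn, the MCM helicase is loaded and fired at replication origins, and the anaphase-promoting complex destroys cyclin B and securin once every kinetochore is attached. Many of these proteins are needed for only part of a cycle, so their mRNAs are made in waves and cleared quickly. YTHDF2 binds m6A, which is richest near stop codons and in 3' UTRs, and recruits the CCR4-NOT deadenylase. Cyclin and CDK mRNAs are among the transcripts for which control by m6A has been described in other cells.

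Each peak has the authors' fold enrichment, RIP over background at the summit, and their q. Peaks with a q of at most 0.01 are said to pass. From the fold and its p-value, the RIP fragments at the summit and the background were worked out. The 95% intervals printed beside folds are exact Poisson intervals of the fragments set over the same background. They cover counting error in the RIP only and leave out the spread between libraries. The lead peak of a gene is the one with the highest −log10 p. Peak coordinates are on hg38.

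Of the 56 genes with a peak, 38 (67.9%, exact Clopper-Pearson 95% interval 54.0 to 79.7) had one that passed. Among all protein-coding genes with a peak 53.2% passed. Of all 20052 protein-coding genes that RefSeq lists, 34.7% had a peak, against 56 of these 100. These shares are descriptions: which genes HCCLM3 expresses is not known from a peak list, and a gene with little RNA can hardly have a peak. By peaks, 58 of 97 passed (59.8%, interval 49.3 to 69.6), against 40.7% over all protein-coding genes. These intervals treat genes or peaks as independent draws and are no test. The genes were chosen by name, 24 of the 56 held 2 or more peaks, and neither are replicates of the experiment. The peaks stood on more RNA than most. Their median was 41 fragments over a background of 17.7, against 19 fragments over 6.80 for peaks of all protein-coding genes. Only 13 of the 97 rested on 4 or fewer fragments (13.4%, against 29.2%). This did not hold for passing lead peaks, with a median of 56 fragments over 20.4, against 66 over 25.2. All passing peaks had a median of 74.5 fragments, against 72. The higher share that passed went with higher fragment numbers among all 97 peaks. The part of these numbers in it was not tested.

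**Figure D1:**
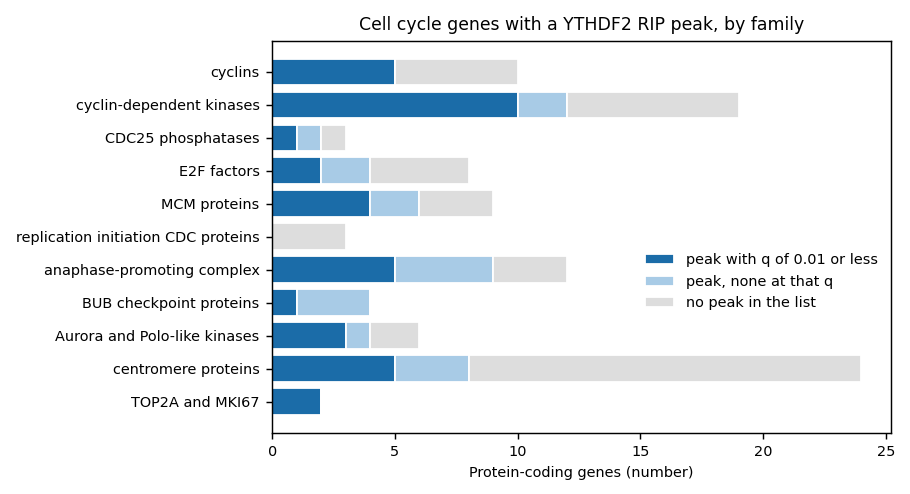
Number of protein-coding genes in each cell cycle family (x axis) with a peak at a q of 0.01 or less (dark), with a peak but none at that q (light) and without a peak (grey). All 5 cyclins with a peak passed, while 16 of 24 centromere proteins and all 3 of CDC6, CDC7 and CDC45 had no peak. Of all protein-coding genes 34.7% had a peak, and the 8 of 24 centromere proteins with a peak were near that share.

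Fold enrichment lay near that of other genes. The lead peaks of the 56 genes had a median log2 fold of 1.37 (interval of the median 1.23 to 1.51), against 1.32 for all protein-coding genes. For the 38 that passed the median was 1.42 (1.23 to 1.79), against 1.37. In fold terms the medians of passing genes were 2.68 and 2.59. A lead fold of at least 3 was reached by 16 of the 38 (42.1%), against 35.9% of all passing protein-coding genes. Folds fall as background rises, so medians were also set side by side within ranges of background. Over a background under 5 the 5 passing cell cycle genes had a median fold of 4.32, against 4.30. Between 5 and 20 the 14 had 2.80 against 2.88, between 20 and 50 the 12 had 2.44 against 2.37, and from 50 upward the 7 had 2.20 against 1.98.

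**Figure D2:**
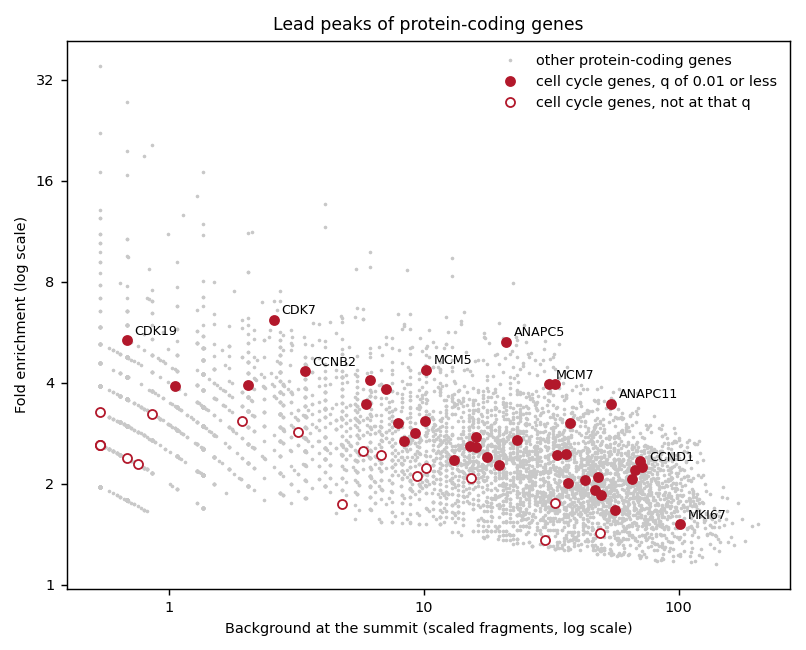
Fold enrichment of the lead peak (y, log scale) against background at its summit in scaled fragments (x, log scale), 1 point per protein-coding gene. The cell cycle genes (red, filled where they passed) lie inside the cloud of other genes (grey), and those that passed run from CDK19 at a background of 0.680 to MKI67 at a background of 102.

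Several of the strongest peaks carried another gene's name in the deposited list, and 4 of the 97 carried that of a microRNA. The lead peak of MCM7 was deposited under MIR25, both CDK4 peaks beside MIR6759 under that microRNA, and a 3' UTR peak of ANAPC1 under MIR4771-2. MCM7 is the host gene of MIR25, MIR93 and MIR106B. None of these hairpins overlapped a peak. MIR25 (chr7:100093560-100093643) lay 611 bp from the MCM7 peak at its nearest, MIR6759 (chr12:57748618-57748682) 175 bp from the lead CDK4 peak and MIR4771-2 2945 bp from the ANAPC1 peak. The mature microRNAs are shown so that the names in the list can be told from the mRNAs that hold the peaks. They come from RefSeq (GRCh38.p14) and all are on the minus strand, with the seed (bases 2 to 8) in capitals. The seed is shared by miR-93-5p and miR-106b-5p and differs in the others.
hsa-miR-25-3p: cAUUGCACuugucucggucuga
hsa-miR-93-5p: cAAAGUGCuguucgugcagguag
hsa-miR-106b-5p: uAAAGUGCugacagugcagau
hsa-miR-6759-5p: uUGUGGGUgggcagaagucugu
hsa-miR-4771: aGCAGACUugaccuacaauua

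The transcripts in question are otherwise known for promoters that turn on in waves, and these were set beside the peaks. RefSeq windows of 250 bases before to 50 after a start were at hand for 87 of the 100 genes, 1 window per gene. An E2F site (TTTGGCGC, TTTCCCGC, TTTCGCGC or TTTGCCGC on either strand) was found in 17 of 87 (19.5%), against 4.44% of 15842 protein-coding genes. The cell cycle homology element of G2 and M genes, CHR (TTTGAA or TTCGAA, either strand), was found in 25.3% against 13.5%, and the CCAAT box in 48.3% against 36.4%. Peaks and motifs did not visibly go together, with overlapping intervals of the shares. An E2F site was in 6 of 33 genes that passed and in 9 of 39 genes without a peak, and a CHR in 8 of 33 and 10 of 39. Matches may overlap, as an E2F site and a CCAAT box do in MCM7. Shown are CCNB2 (chr15:59104896-59105195, plus strand) for mitotic genes and MCM7 (chr7:100101348-100101647, minus strand) for S phase genes, both with lead folds near 4. CDK7 (chr5:69234636-69234935, plus strand), whose peak began 24 bp past the window, held no match to these letters. CCNB2 and CDK7 were picked after their values were seen. Capitals mark the matches.
CCNB2: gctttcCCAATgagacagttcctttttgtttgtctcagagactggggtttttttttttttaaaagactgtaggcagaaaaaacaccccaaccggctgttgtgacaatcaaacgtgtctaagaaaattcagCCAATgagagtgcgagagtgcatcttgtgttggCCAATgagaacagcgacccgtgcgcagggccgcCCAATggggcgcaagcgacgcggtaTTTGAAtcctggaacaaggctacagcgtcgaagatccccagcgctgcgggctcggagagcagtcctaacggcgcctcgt
MCM7: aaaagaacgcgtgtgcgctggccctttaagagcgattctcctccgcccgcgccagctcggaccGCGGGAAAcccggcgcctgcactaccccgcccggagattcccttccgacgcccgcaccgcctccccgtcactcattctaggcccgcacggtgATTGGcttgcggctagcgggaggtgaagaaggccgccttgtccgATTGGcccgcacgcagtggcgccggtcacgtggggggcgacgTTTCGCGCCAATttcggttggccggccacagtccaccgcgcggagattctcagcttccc
CDK7: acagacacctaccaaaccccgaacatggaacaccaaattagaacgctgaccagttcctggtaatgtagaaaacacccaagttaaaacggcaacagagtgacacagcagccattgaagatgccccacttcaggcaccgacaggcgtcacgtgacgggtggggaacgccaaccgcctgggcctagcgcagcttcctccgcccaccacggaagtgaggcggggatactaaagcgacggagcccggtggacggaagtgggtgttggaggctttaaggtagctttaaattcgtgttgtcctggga
In CCNB2 the CHR stood at -29 from the start, downstream of 4 CCAAT boxes at -244, -120, -87 and -54. In MCM7 E2F sites stood at -187 and -9. None of the 87 genes with a window had a peak that overlapped it, so the peaks say nothing of these bases.

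Family counts from here on stand beside these shares of all protein-coding genes: 34.7% had a peak, and 53.2% of those with a peak passed. Families are small, and no difference from these shares was tested. Of 10 cyclin genes 5 had a peak, and all 5 passed. CCNB2, the cyclin B that activates CDK1 mainly at the Golgi, had the highest fold among their lead peaks. Its 3' UTR peak (chr15:59124883-59125208) had a fold of 4.32 (95% interval 2.65 to 6.69) over 18 fragments, with the summit 5 bp from the gene's 3' end. A second peak in exon 5 of 9 had 2.17-fold over 41 fragments. CCNB1, the other mitotic cyclin B, had a 3' UTR peak of 2.35-fold (1.63 to 3.28) over 32 fragments, and its interval overlapped that of CCNB2. A second CCNB1 peak of the promoter class reached 1.56-fold over 78 fragments and did not pass. Both cyclin B mRNAs were thus enriched at the 3' end.

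CCNE1, which drives S phase entry with CDK2, had a 3' UTR peak of 2.67-fold (1.75 to 3.93) over 24 fragments. The D cyclins bind CDK4 and CDK6 in G1. Of the cyclins with a peak CCND1 stood on the most RNA, with backgrounds from 72.1 to 106. CCND1 had 4 passing peaks, the most of any cyclin. The highest (chr11:69654308-69654629) lay 86 bp from the 3' end with 2.24-fold (1.92 to 2.61) over 163 fragments. Peaks upstream in the 3' UTR had 1.71-fold over 182 and 1.74-fold over 157 fragments, and the peak near the start 1.99-fold over 162. Enrichment in CCND1 was hence spread over both ends of the gene, and all 4 intervals overlapped.

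CCND3 held peaks at very different levels. Its 3' UTR peak (chr6:41934792-41935143) had 2.46-fold (1.98 to 3.01) over 90 fragments. A peak in intron 1 of 4 (chr6:42000043-42000401) had 6.08-fold (3.91 to 9.07) over 22 fragments, and these intervals did not overlap. It was the only one of 10 intron peaks in these genes that passed, and 8 of the 10 rested on 3 or 4 fragments. Few intron peaks passed in other genes either, 185 of 2804 over all protein-coding genes. CCNA1, CCNA2, CCNB3, CCND2 and CCNE2 had no peak.

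Of 19 CDK genes 12 had a peak and 10 passed. Among the 5 kinases of the cycle itself, CDK1, CDK4 and CDK6 passed, and CDK2 and CDK3 had no peak. CDK4, the G1 partner of D cyclins, had the strongest evidence of them, a −log10 q of 34.1. That peak (chr12:57748089-57748443) had 3.96-fold (3.32 to 4.70) over 132 fragments and lay 572 bp from the 3' end of CDK4. It is one of the MIR6759 peaks above, and it carried the promoter class. The second, on the other side of the hairpin, had 1.98-fold over 121 fragments, and one near the start 1.67-fold (1.40 to 1.99) over 128. The interval of the lead peak lay above those of both. A further CDK4 peak of 1.56-fold over 94 fragments missed the q by the least of all these genes, with a −log10 q of 1.9996. The lead and second CDK4 peaks also lay in TSPAN31, which overlaps CDK4. The list gives no strand for peaks, so the pair cannot be told apart.

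CDK6, the paralog of CDK4, had 3' UTR peaks of 1.86-fold (1.50 to 2.27) over 93 fragments and 1.71-fold over 76. The interval of its lead peak lay below that of CDK4, a ratio of 2.14 that was not tested. The backgrounds were 49.6 for CDK6 and 32.5 for CDK4. CDK1, the mitotic kinase, had a 3' UTR peak (chr10:60794628-60794988) of 2.75-fold (2.03 to 3.66) over 46 fragments, 146 bp from its 3' end.

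Kinases that act on RNA polymerase II passed in 5 of 6 genes, with lead folds from 2.43 to 6.16. CDK7, which activates other CDKs and is part of TFIIH, had the highest fold of the 56 genes with a peak. Its peak (chr5:69234959-69235319) near the start reached 6.16-fold (3.92 to 9.27) over 21 fragments, with a −log10 q of 9.63. CDK19 and CDK8 are alternative kinases of Mediator. CDK19 had a peak of the 5' UTR class with 5.36-fold (2.65 to 9.98) over 8 fragments, and CDK8 an exon 6 peak of 3.95-fold (2.14 to 6.80) over 11. Both wide intervals reflect few fragments. The CDK19 peak lay well inside the gene, 33.9% along its span, and was deposited under AMD1. CDK12 and CDK13 phosphorylate the polymerase during elongation with cyclin K. CDK12 had 4 passing peaks, in the 3' UTR at 3.03-fold (2.02 to 4.38) and 2.28-fold and in exons 2 and 13 of 14 at 1.82-fold and 1.77-fold. CDK13 passed in exon 2 of 14 with 2.43-fold (1.94 to 3.01) over 82 fragments and near its start with 2.04-fold over 58. CDK9 had no peak.

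Of the 8 remaining CDKs 4 had a peak and 2 passed. CDK16 and CDK17 are PCTAIRE kinases with roles outside the cycle. The CDK16 3' UTR peak had 2.33-fold (1.99 to 2.71) over 166 fragments, while its exon and promoter peaks of 1.43-fold and 1.30-fold did not pass. CDK17 had 2.59-fold (1.88 to 3.49) in the 3' UTR and 3.09-fold in exon 9 of 16. CDK5 (18 fragments, 3' UTR) and CDK15 (3 fragments, promoter class) did not pass, and CDK10, CDK14, CDK18 and CDK20 had no peak.

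**Figure D3:**
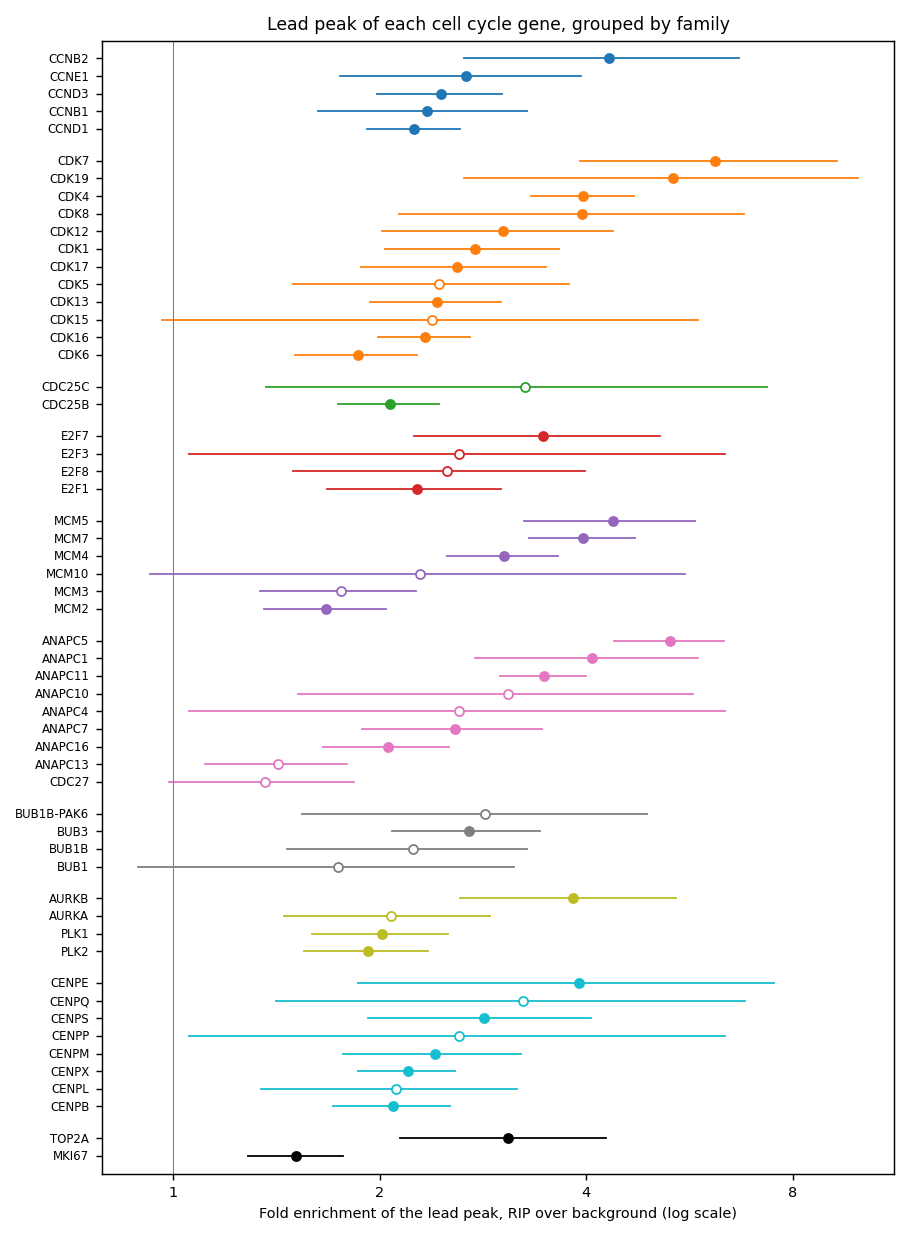
Fold enrichment of the lead peak of the 56 genes with a peak (x, log scale), grouped by family, with exact Poisson 95% intervals of the RIP fragments as bars. Filled points passed a q of 0.01. CDK7 is highest at 6.16, CDK19 follows at 5.36 with a wide bar and ANAPC5 at 5.30, and MKI67 is the lowest that passed at 1.51.

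CDC25 phosphatases remove the phosphates that hold CDKs inactive. CDC25B had 3 passing peaks of the promoter class, of 2.07-fold (1.74 to 2.44) over 136 fragments, 1.82-fold over 191 and 1.54-fold over 154. The second lay 978 bp from the gene's 3' end and was deposited under LINC01730. CDC25C had an exon peak of 4 fragments that did not pass, and CDC25A had none. E2F factors switch on S phase genes, and E2F7 and E2F8 are repressors among them. E2F7 had a 3' UTR peak of 3.46-fold (2.25 to 5.12) over 23 fragments. E2F1 had 2.27-fold (1.67 to 3.01) over 46 fragments in a peak of the promoter class that lay 366 bp from its own 3' end. E2F3 (intron peaks of 3 fragments) and E2F8 (an exon peak of 16 fragments) did not pass, and E2F2, E2F4, E2F5 and E2F6 had no peak.

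MCM2 to MCM7 form the ring helicase that unwinds origins. Of 9 MCM genes 6 had a peak and 4 passed, with a median lead fold of 3.49. MCM5 was highest, with 4.38-fold (3.25 to 5.77) over 48 fragments in its 3' UTR (chr22:35424280-35424626). MCM7 (chr7:100092634-100092949) had 3.96-fold (3.30 to 4.71) over 125 fragments, 95 bp from its 3' end, and a second peak of 3.03-fold (2.49 to 3.66) over 106 fragments within the gene. MCM4 had 3.03-fold (2.51 to 3.63) over 115 fragments near its start. MCM2 was lowest, with 1.67-fold (1.36 to 2.04) over 95 fragments in exon 4 of 16 and 2.09-fold (1.53 to 2.79) over 44 in the 3' UTR. Lead peaks of the subunits of 1 ring thus differed in fold, over backgrounds of 10.2 in MCM5, 30.9 in MCM7 and 56.4 in MCM2. The intervals of the lead peaks of MCM5 and MCM7 lay above that of MCM2, with ratios of 2.62 and 2.37 that were not tested. The MCM2 lead peak is the one in exon 4. Its 3' UTR peak stood over a background of 20.6, and the interval of that peak also lay below both. The part of background in these ratios was not tested. MCM3 had a 3' UTR peak of 1.75-fold over 58 fragments with a −log10 q of 1.91, just short of passing. MCM10, which joins the helicase later, had a peak of 3 fragments. MCM6, MCM8 and MCM9 had none, nor had CDC6, CDC45 and CDC7, which load, complete and fire the helicase.

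The anaphase-promoting complex had a peak in 9 of 12 genes, and 5 passed with a median lead fold of 3.47. ANAPC5, a subunit of its platform, had the highest fold of any of these genes with over 30 fragments. Its 3' UTR peak (chr12:121308172-121308538) had 5.30-fold (4.39 to 6.35) over 116 fragments and a −log10 q of 41.4, 136 bp from the 3' end. ANAPC11, the RING subunit that carries the ligase activity, reached the same −log10 q of 41.4 with 3.47-fold (2.99 to 3.99) over 191 fragments (chr17:81900091-81900448). That peak was deposited as a promoter peak of NPB and lay 333 bp from the 3' end of ANAPC11. These were the highest −log10 q values among the 97 peaks. ANAPC1, the scaffold, had 4.07-fold (2.75 to 5.83) over 28 fragments in exon 9 of 48, and 2 weaker peaks. The gene table lists ANAPC1 pseudogenes, and reads shared with them make its values uncertain. ANAPC7 had 2.58-fold (1.88 to 3.45) and ANAPC16 2.05-fold (1.65 to 2.52), both in the 3' UTR. ANAPC5 lay above ANAPC16 by a ratio of 2.58 with intervals apart, over backgrounds of 21.1 and 42.8, again not tested. ANAPC4 (9 fragments at its promoter-class peak), ANAPC10 (8, 3' UTR), ANAPC13 (70, 3' UTR) and CDC27 (41, 5' UTR class) did not pass. CDC27 also has pseudogene copies. ANAPC2, ANAPC15 and CDC20, the activator that brings in cyclin B, had no peak.

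Of 4 BUB genes all had a peak and 1 passed. BUB3, which docks the checkpoint on kinetochores, had a 3' UTR peak of 2.70-fold (2.09 to 3.43) over 64 fragments. BUB1 (9 fragments, 3' UTR) and BUB1B (24 and 39 fragments in exons 14 and 7 of 23) did not pass. A peak of 11 fragments given to the BUB1B-PAK6 readthrough lies also in BUB1B, close to its 3' end. Of the Aurora kinases, AURKB of the chromosomal passenger complex had a 3' UTR peak (chr17:8204598-8205218) of 3.82-fold (2.62 to 5.40) over 30 fragments, 36 bp from the 3' end. AURKA, which matures spindle poles, had 2.08-fold (1.45 to 2.90) over 33 fragments in the 3' UTR with a −log10 q of 1.81, and did not pass. Their intervals overlapped, so no difference between the pair can be read from 1 passing and the other not. PLK1, the mitotic Polo-like kinase, had 2.02-fold (1.59 to 2.52) over 75 fragments in the 3' UTR and PLK2, a stress-induced relative, 1.92-fold (1.55 to 2.35) over 91 in exon 8 of 14. PLK3 and PLK4 had no peak.

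Centromere proteins were the largest family, with a peak in 8 of 24 genes, of which 5 passed. That share with a peak was near the 34.7% of all protein-coding genes. CENPB, which binds a box in alpha satellite DNA, had 2.09-fold (1.71 to 2.53) over 102 fragments 101 bp from its 3' end and 1.51-fold over 191 fragments upstream. CENPX and CENPS form a histone-fold pair. CENPX had 2.20-fold (1.86 to 2.58) over 149 fragments and CENPS 2.84-fold (1.92 to 4.06) over 28, both in the 3' UTR with overlapping intervals. The CENPS summit lies also in the CENPS-CORT readthrough. CENPM had 2.41-fold (1.77 to 3.22) over 44 fragments in a promoter-class peak that lay inside the gene, 41.7% along its span. CENPE, the kinesin that moves chromosomes to the spindle equator, passed with the fewest fragments of all, 7, at 3.90-fold (1.86 to 7.53) in exon 14 of 47 and a −log10 q of 2.05, the lowest that passed. CENPL (21 fragments, promoter class), CENPP (3, intron) and CENPQ (5, 3' UTR) did not pass. No peak lay in CENPA, CENPC, CENPF, CENPH, CENPI, CENPK, CENPN, CENPO, CENPT, CENPU, CENPV, CENPVL1, CENPVL2, CENPVL3, CENPW or CENPS-CORT.

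TOP2A untangles sister chromatids and MKI67 (Ki-67) coats mitotic chromosomes, and both mark cycling cells. TOP2A had 3.07-fold (2.14 to 4.28) over 33 fragments in its 3' UTR and 2.15-fold over 61 in exon 27 of 35. MKI67 combined many fragments with low folds. Its 3 peaks all lay in exon 12 of 14, with 1.51-fold (1.28 to 1.77) over 154 fragments, 1.46-fold over 144 and, not passing, 1.29-fold over 128.

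Of the 58 passing peaks 26 were of the 3' UTR class (44.8%, interval 31.7 to 58.5), 17 promoter, 13 exon, 1 intron and 1 5' UTR. The 3' UTR share over all protein-coding genes was 41.3%. The promoter class goes by the nearest start site of any gene, which can lie beside the end of another. Of the 17 passing promoter-class peaks, 6 had the summit within 1 kb of the 3' end of the gene that held them (35.3%, interval 14.2 to 61.7). The 6 genes were ANAPC11, CDC25B, CDK4, CENPB, E2F1 and MCM7. The share over all protein-coding genes was 35.8%, so these genes were like the rest of the list in this. Counting these with the 3' UTR class put 32 of 58 passing peaks at the 3' end (55.2%, interval 41.5 to 68.3), against 50.4% over all protein-coding genes. By distance alone 22 of 58 summits (37.9%) lay within 1 kb of the 3' end, against 33.6%, and each of the 22 was in a different gene. Gene ends are those of the longest annotated span, so CDK12 and MCM5, whose spans run on beyond their 3' UTR peaks, do not count.

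**Figure D4:**
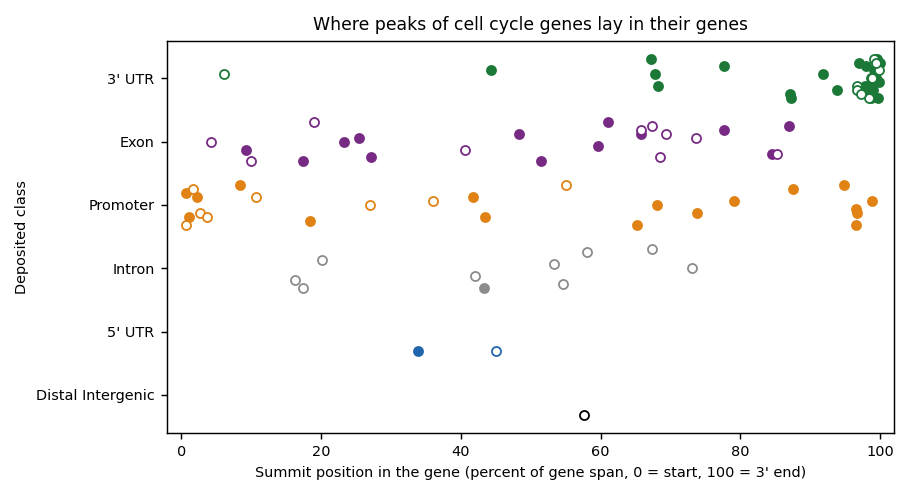
Position of each summit in its gene as a percent of the gene span (x, 0 the start and 100 the 3' end) by deposited class (rows), filled where the peak passed. Most 3' UTR peaks lie near the right edge, and promoter-class peaks are spread from the start to the 3' end, with CENPM at 41.7%. AURKA is left out for want of a strand.

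In 14 genes 2 or more peaks passed, which lets enrichment be compared along 1 gene. Intervals of the highest and lowest peak lay apart in 2 of them, CCND3 and CDK4, by ratios of 2.47 and 2.37. In CCND3 the highest peak was in intron 1 over a background of 2.78, the lowest in the 3' UTR over 36.0. The highest CDK4 peak also lay in TSPAN31. In neither gene need the 2 peaks come from 1 RNA. In CCNB2 the ratio was 1.99 and in CDK12 1.71, with overlapping intervals. At the other end MKI67 and CDK6 had ratios of 1.04 and 1.08. In CCNB2, CDK12, MCM2 and TOP2A the 3' UTR peak was the highest and an exon peak the lowest, while in CDK17 the order was turned.

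**Figure D5:**
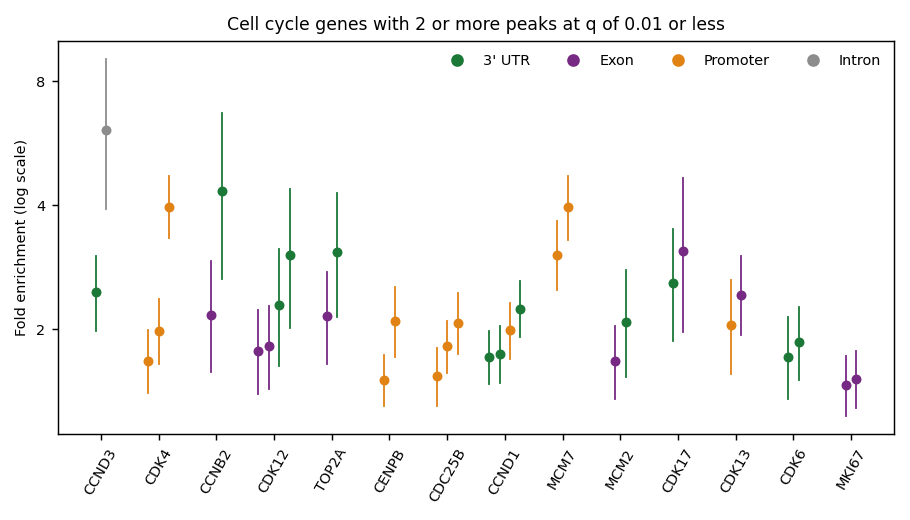
Fold enrichment (y, log scale) of each passing peak in the 14 genes with 2 or more of them, coloured by deposited class, with exact Poisson 95% intervals of the RIP fragments. Genes run from the largest ratio of highest to lowest peak (CCND3, 2.47) to the smallest (MKI67, 1.04).

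The rest of the machinery was covered by 9 further lists of 175 genes. Of these 102 had a peak and 63 (61.8%) passed, with a median lead fold of 2.63. Over all protein-coding genes 53.2% of those with a peak and 18.4% of those in the table passed, with a median of 2.59. Among CDK inhibitors 3 of 8 had a peak, and CDKN2A passed at 4.98-fold over 53 fragments, while CDKN1A and CDKN1C did not. The CDKN2A peak was of the promoter class and deposited under CDKN2A-AS1, and the list gives no strand to tell which RNA it came from. Among regulators of CDK activity 9 of 24 passed. CKS1B, a CDK-binding subunit, had 3.24-fold over 125 fragments, the cullin CUL1 2.73-fold over 89 and cyclin C 2.63-fold over 32. Of the RB family and its partners 5 of 13 passed, with the highest folds in the pocket proteins RBL1 (3.93-fold) and RBL2 (3.37-fold) and in RBBP4 (2.65-fold). RB1 had a peak that did not pass.

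Replication genes beyond the MCM proteins had both strong and weak peaks. Of 20 genes of origin licensing 6 passed, with a median lead fold of 1.96. GINS1 (2.71-fold), TOPBP1 (2.20-fold) and GINS3 (1.99-fold) led them. Of 25 genes of the fork and of nucleotide supply 9 passed. RPA1, a single-strand binding protein, had 4.17-fold in an intron peak of 23 fragments. The clamp loader RFC3 had 4.17-fold (1.91 to 8.37), also in an intron, over 6 fragments and a background of 0.680. RRM1 of ribonucleotide reductase had 3.24-fold over 75.

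Genes that act on chromosomes in mitosis passed in 9 of 24 for the outer kinetochore and checkpoint, 10 of 25 for cohesin and condensin and 11 of 21 for the spindle and cytokinesis. Of the first, KNTC1 had 4.74-fold over 22 fragments and NDC80 3.95-fold over 11. Of the second, the cohesin regulator PDS5B (4.24-fold over 9 fragments) and the cohesin subunits STAG2 (4.18-fold over 81) and STAG1 (4.17-fold over 23) led. Of the third, CLASP1 had 6.39-fold over 56 fragments, ASPM 4.66-fold over 10 and NUSAP1 3.41-fold over 14. The CLASP1 peak was deposited under RNU4ATAC, a small nuclear RNA gene, and without strands the pair cannot be told apart. Of 15 genes of the DNA damage checkpoint 3 passed, among them the ubiquitin ligase MDM2 at 3.94-fold over 19 fragments and the kinase ATM at 3.86-fold over 16.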

How the data were processed

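The labels gave 2 YTHDF2 RIP and 2 input libraries, made with a magnetic RIP kit and a stranded total RNA kit for low input. The submitters' processing notes name HISAT2, MACS2 and hg38. Their versions, options and thresholds, and how replicates were combined, were not given in the sources used here. Per the file headers, the deposited list gives each peak's position, width in bp, distance to a start site and score, which was not used. Fold enrichment was deposited as a ratio of RIP over background at each summit. The p- and q-values of the peak caller were deposited as −log10.

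Peaks were given to the gene in the exon or intron annotation, and otherwise to the RefSeq gene (GRCh38.p14) whose span held the summit, with preference for protein-coding genes, next for the deposited one and last for the shortest. Fragments k and background followed from the fold, (k + 1) / (background + 1), and the Poisson p. They met every −log10 p within 0.000189. Of 2000 peaks simulated with these same formulas 100% were recovered, which checks the calculation only and not whether the deposited values follow the formulas. Genes are named by a fixed rule: every passing gene with values, others by class and fragments, and in each further list the 3 highest folds that passed. Some genes that this rule names in the further lists are not reported here. Promoters of CCNB2 and CDK7 were added to the sequences after values were seen. Comparisons between pairs and along genes were chosen after values were seen. The members and lists were chosen with earlier results of these data known. No test over samples exists for 1 list, so shares and medians are set beside those of all protein-coding genes with no p. Whether PCR copies were removed was not given, and any that were kept are counted as if independent. The intervals of folds cover counting error only. The intervals of shares and medians treat genes or peaks as independent draws. None of the intervals holds the spread between libraries. Python 3.11.15, pandas 2.3.3 and scipy 1.17.1 were used.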

Additional observations from a re-analysis of the deposited data

How the results depend on the processing

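The number of genes with a peak (56) and the median log2 folds of lead peaks (1.37) and of passing lead peaks (1.42) moved little: the first was between 54 and 56 in the alternatives run, and both medians stayed within their intervals. The largest move of the first median was to 1.27 with at least 20 fragments, where all protein-coding genes had 1.11. With −log10 q required to reach 5, the genes that passed went from 38 to 23 and those of the further lists from 63 to 32, and the share of all protein-coding genes with a peak that passed was 31.5%. The 3' UTR share of the peaks was 37.1% over all 97, against 33.0% over all protein-coding genes. At a −log10 q of at least 5 it was 50%, against 39.7%. At a q of 0.01 with a fold of at least 2 it was 52.4%, against 40.0%. These stricter shares rest on fewer of the 97 peaks and have no interval, and the differences were not tested. With the gene as deposited 37 genes passed, and with exon and UTR classes only 29. Leaving out summits in more than 1 protein-coding gene, or ANAPC1 and CDC27, both chosen after seeing the data, left 37 genes each. The planned count of m6A motifs in peaks was not run, as no genome was used here. No paired analysis was possible because the list holds no value per library, and for the same reason no library could be left out. The lead peaks of CDK19, CDK8, CENPE and CCNB2 rest on fewer than 20 fragments, and of these genes CCNB2 also passed with a peak of 41.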

Other observations

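The gene name in the deposited list often differed from the gene that held the peak. Of 94 peaks deposited under one of the 100 symbols 69 lay in that gene and 25 elsewhere, and 12 of the 25 passed. Of the symbols so named, 12 had no peak of their own. The highest fold under such a name was that of a peak deposited under CCNE2, with 5.47-fold over 21 fragments, which lay in an exon of INTS8, an Integrator subunit. A peak deposited under CDK20 (4.28-fold over 12 fragments) lay in the pseudogene RPS10P3, one under CDK3 (2.55-fold over 90) in the telomere gene TEN1, and one under CDK16 (4.23-fold over 121) in UBA1, the E1 ubiquitin-activating enzyme. Peaks under CCNA2 (3 fragments), CDC6 (1.38-fold) and CDC7 (10 fragments) lay in BBS7, WIPF2 and TGFBR3, and none of these passed. In the other direction, 28 of the 97 peaks inside these genes were deposited under another name, among them the peaks of ANAPC5 under CAMKK2, ANAPC11 under NPB, CDK6 under FAM133B and TOP2A under GJD3. The gene holding the peak was the deposited one for 71.1% of the 97 peaks and for 57.3% of peaks in all protein-coding genes.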
